A study of Mus musculus with 36 samples.

Results

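The liver of SMJ mice was examined 6 h after a single dose of acetaminophen, by setting the 3 arrays labelled SMJ at 6 h after the drug against the 3 arrays labelled SMJ at 0 h. These are 6 of the 36 arrays of a study of 4 inbred strains, labelled SJL, SMJ, DBA and C57, with 3 mice at each of 0, 3 and 6 h. The 6 h mice had been fasted overnight, which lowers hepatic glutathione, and had then received 300 mg/kg acetaminophen into the peritoneum. The 0 h mice are labelled pre-dose, and the overnight fast before exposure is stated for all mice. Each array held the liver RNA of 1 mouse, and the labels used here give neither age nor sex. SMJ is one of the strains that the study's design calls sensitive to acetaminophen injury, together with C57 and DBA, whereas SJL is called resistant. SMJ mice at 3 h, and mice of the other 3 strains at 6 h and 0 h, serve below only to place the SMJ response. No vehicle group is used here, so that the drug, the hours of fasting and the time of day cannot be told apart in the difference between 6 h and 0 h.

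Acetaminophen is mostly cleared by conjugation to glucuronate or sulfate, but cytochrome P450 enzymes, Cyp2e1 above all, turn part of it into a reactive quinone imine. The quinone imine is trapped by glutathione and, once glutathione runs out, binds to proteins, injures mitochondria and activates the kinase JNK, which ends in necrosis of the hepatocytes around the central vein. Hepatocytes answer with the oxidant-sensing transcription factor NRF2, with immediate early factors of the FOS, JUN and EGR families, and with chaperones, while injured tissue draws in neutrophils and macrophages.

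Expression is given as the MAS5 signal of Affymetrix probe sets, a brightness that the authors scaled so that a trimmed mean of every array is 150. For each gene the probe set brightest on average was used, passing over those marked as cross-hybridising where another existed. Changes were tested with limma on log2(signal + 2.77), and genes with an adjusted p under 0.05 among the 13802 genes tested are called changed. A change is a log2 difference of 6 h minus 0 h with its standard error (n = 3 mice a group), and it understates the change of a dim gene because of the added 2.77. Values for single mice are given in the order SMJ101, SMJ102 and SMJ103 at 6 h, and SMJ56, SMJ57 and SMJ58 at 0 h. The p-values rest on the spread between mice within a group, pooled over all 12 groups of the study, and thus not on the 6 SMJ mice alone.

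An array of each group stood apart from its neighbours. SMJ56, labelled 0 h, had high immediate early and stress genes, of which those named next were chosen after their values were seen. Its Fos signal was 2523, against 37.4 to 159.3 in the other 11 arrays at 0 h of all strains, its Egr1 signal 5824, against 171 to 1290, and its Hmox1 signal 5481, against 140 to 561. Over all genes its correlation with its own group (r = 0.950 and 0.953) was about that with the nearest array, SMJ98 at 3 h (r = 0.954). It lay above both other 0 h arrays in 22 of 25 immediate early genes, 16 of 18 endoplasmic reticulum chaperones and 20 of 22 acute phase genes, against 37.1% of all genes. At 6 h, SMJ103 correlated with its own group at 0.925 and 0.927 and with SMJ98 at 0.927, against 0.942 between SMJ101 and SMJ102, and it had high signals of pancreas genes. The summed signal of 6 pancreas genes was 1231, 260 and 69510 at 6 h, against 1577, 18860 and 10590 at 0 h, and in the other 30 arrays it ranged from 285 to 88260.

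At 6 h, 1103 genes (7.99% of those tested) rose and 1643 (11.9%) fell, and of these 494 rose and 384 fell by 2-fold or more. The median change over all genes was −0.05. Signals of the 6 h mice all lay above those of the 0 h mice in 2032 genes (14.7%) and all below them in 2746 (19.9%), together 34.6%. Without SMJ56 the counts were 1077 higher and 1527 lower, without SMJ103 988 and 1434, and without both 972 and 1357. With the spread taken from the 6 SMJ arrays alone 491 rose and 447 fell. Under that fit 7 NRF2 targets, 6 matricellular genes, 3 genes of the JNK and p38 cascade and 1 gene of ribosome biogenesis rose, 3 genes of the bile acid list fell, and no clotting, complement, proteasome, autophagy or endoplasmic reticulum chaperone gene was called. Among the 15 largest rises were the immediate early genes Fos, Fosl1, Atf3, Ier3 and Csrnp1, the chemokine gene Cxcl2, the neutrophil genes S100a8 and S100a9, the matricellular gene Ccn1, the chaperone gene Hspa1a and the small MAF gene Maff. Among the largest falls was that of Slc1a2, a glutamate transporter of hepatocytes around the central vein. The other large falls belonged mostly to dim genes: in 12 of the 15 genes with the largest falls all 3 signals at 6 h were below 30.8, the median of all values. The 15 largest rises and the 15 largest falls were taken from genes whose groups did not overlap. The lack of overlap given for these genes below was thus part of the choice. The plot of gene lists gives the direction of each group of genes described below. Each count of a list below is to be read beside the shares over all genes, 7.99% higher and 11.9% lower.

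**Figure D1:**
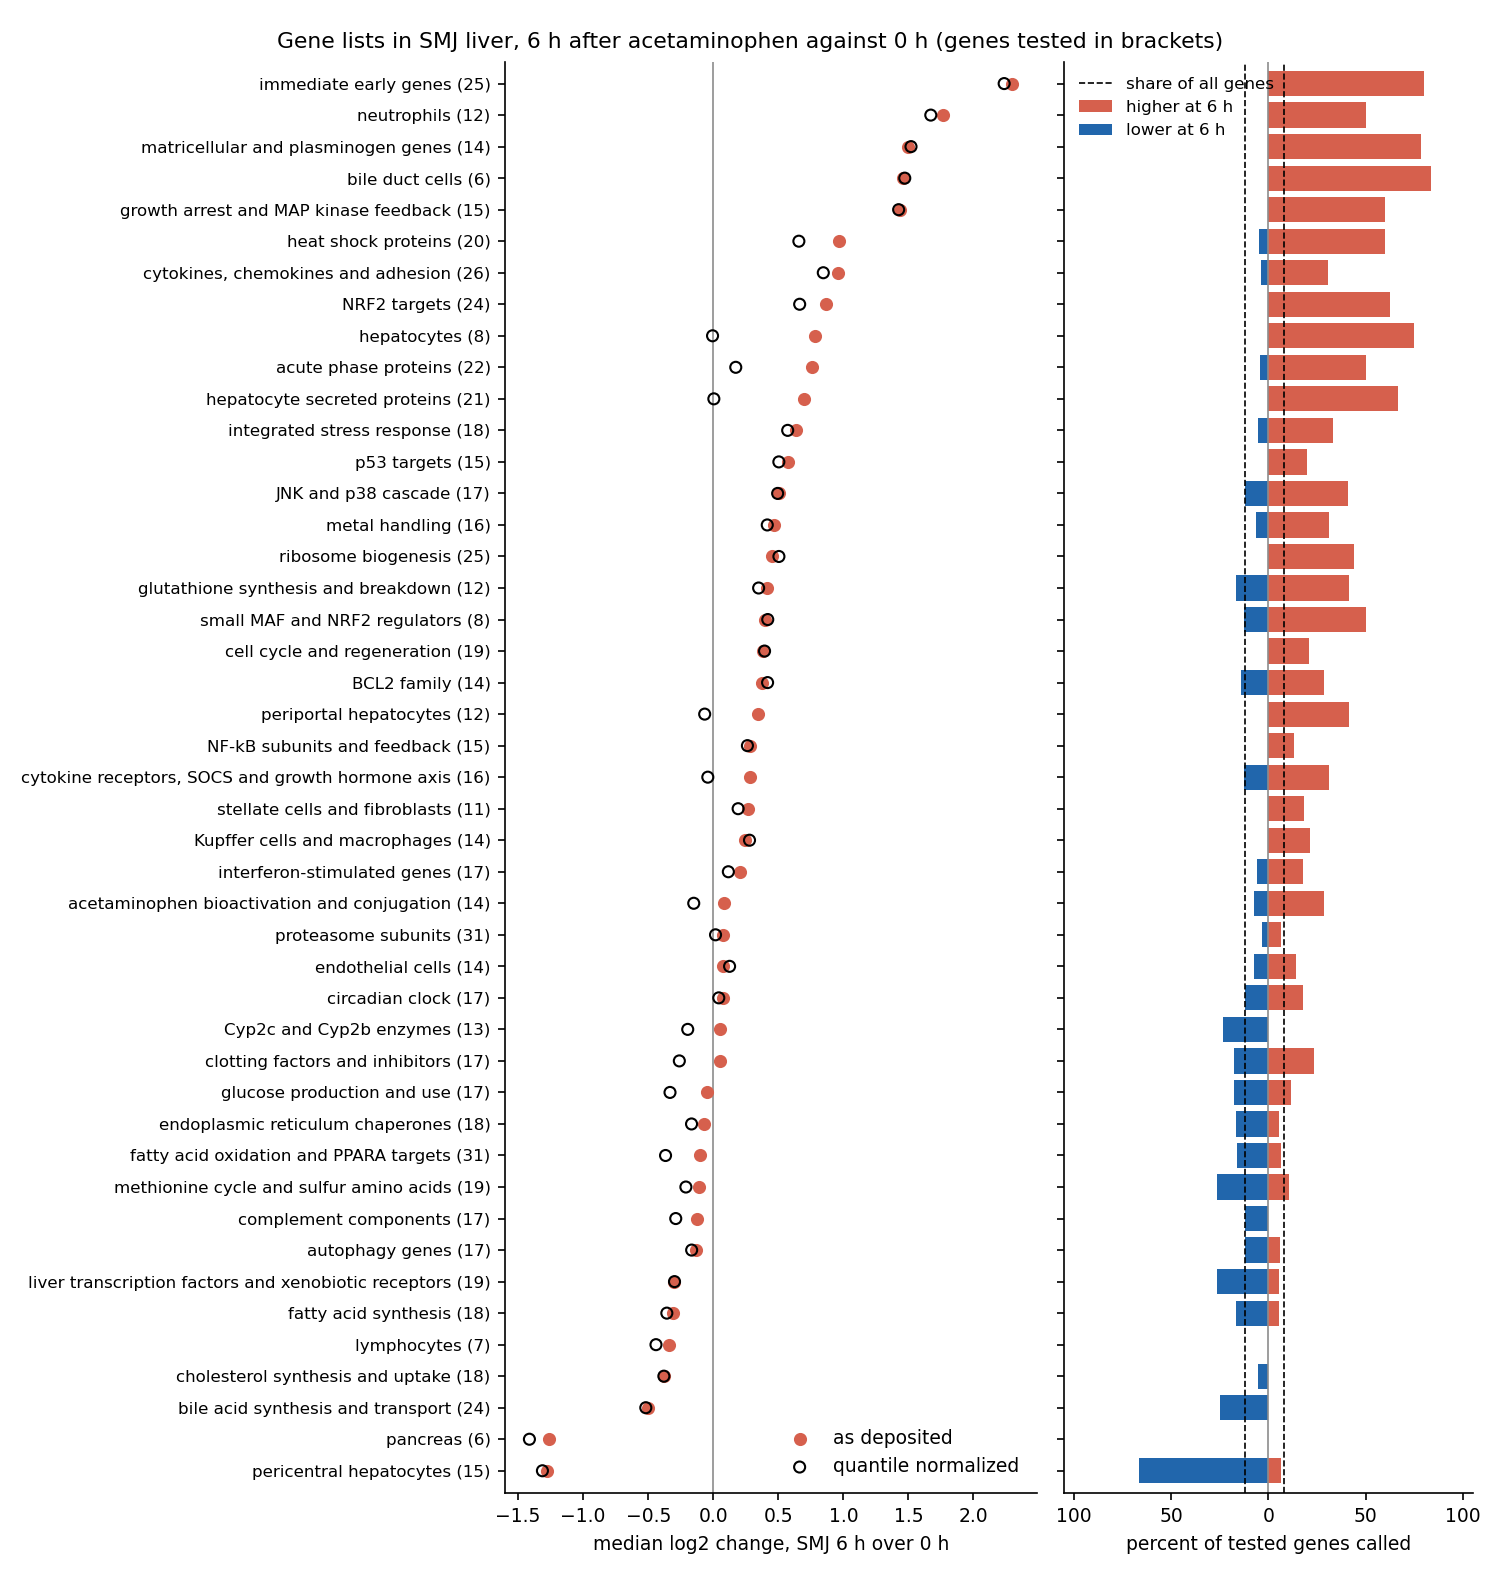
Gene lists in SMJ liver at 6 h against 0 h, for the 45 lists with at least 5 tested genes. On the left, each point is the median log2 change of a list's tested genes, as deposited (filled) or after quantile normalization (open); on the right, bars give the percent of tested genes called higher or lower, and dashed lines give the percent over all genes, 7.99% higher and 11.9% lower.

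Immediate early genes, transcription factors and feedback genes transcribed soon after a stimulus without new protein synthesis, rose in 20 of 25 tested members and fell in none, with a median change of 2.30. Fos, a subunit of the AP-1 factor, had signals of 6893, 10010 and 10150 at 6 h, against 2523, 76.8 and 79.6 at 0 h. The groups did not overlap, but SMJ56 was far brighter than the other 0 h mice, and the change of 5.12 ± 0.94 (adjusted p = 0.00029) became 6.78 without it. Atf3, a stress-induced repressor, had 5378, 5178 and 6146 at 6 h, against 953, 98.2 and 141 at 0 h, a change of 4.53 ± 0.59 (adjusted p = 5.4e-06) and of 5.53 without SMJ56. Ier3, a survival gene induced by NF-kB, showed 1761, 1325 and 1015 at 6 h, against 100.8, 27.6 and 43.9 at 0 h. All 3 treated mice were far above every 0 h mouse, and the change was 4.66 ± 0.38 (adjusted p = 1.1e-08). Fosl1, which codes for the AP-1 subunit FRA1, reached 468, 540 and 219 at 6 h, against 32.3, 5.35 and 3.97 at 0 h (4.95 ± 0.85, adjusted p = 0.00013, and 5.70 without SMJ56). Junb, Btg2 and Csrnp1 rose by 3.38, 3.41 and 4.17, with 4.14 for Btg2 without SMJ56 and 2.18 for Csrnp1 on the mean of its probe sets. The kinase phosphatase gene Dusp5 and the growth arrest gene Gadd45a rose by 3.94 and 3.98 (4.98 for Gadd45a without SMJ56), and in their list of growth arrest genes and MAP kinase feedback 9 of 15 rose and none fell (median 1.43).

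The kinase cascade that leads to JNK and p38 changed in both directions, with 7 of 17 genes higher and 2 lower, and with 4 higher when SMJ58 or SMJ103 was left out or after quantile normalization. Map2k3, which codes for the p38 activator MKK3, had signals of 2094, 2442 and 1800 at 6 h, against 736, 710 and 669 at 0 h, a change of 1.57 ± 0.16 (adjusted p = 2.6e-07). Map3k5, which codes for the redox-regulated kinase ASK1, rose by 0.86. Mapk14, which codes for p38 alpha itself, fell to 540, 624 and 634 at 6 h, against 1129, 1036 and 1022 at 0 h, a change of −0.83 ± 0.13 (adjusted p = 4.0e-05). Of the 5 tested probe sets of Mapk14 3 were called, with changes over all 5 from −1.2 to 0.033. Sh3bp5, which codes for the mitochondrial docking protein of JNK, also fell, by 0.80, but on the mean of its probe sets the difference of −0.54 was not called. In these 4 genes no signal at 6 h overlapped any at 0 h.

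NRF2 targets rose in 15 of 24 tested genes and fell in none, with a median change of 0.87. Srxn1, which codes for the sulfiredoxin that repairs peroxiredoxins, had signals of 6987, 6270 and 5034 at 6 h, against 1560, 640 and 559 at 0 h. The 6 h mice were all well above the brightest 0 h mouse, SMJ56 (2.87 ± 0.32, adjusted p = 7.1e-07). Gclc, the catalytic subunit of the rate-limiting enzyme of glutathione synthesis, had 14010, 14620 and 11460 at 6 h, against 4918, 3290 and 3718 at 0 h, a change of 1.76 ± 0.23 (adjusted p = 4.5e-06). Its regulatory partner Gclm changed less, with a rise of 0.46 ± 0.11 (adjusted p = 0.0046). Txnrd1, thioredoxin reductase, rose by 1.84, Osgin1, an oxidative stress induced growth inhibitor, by 2.19, and the quinone reductase gene Nqo1 by 1.35. Heme oxygenase gene Hmox1 stood at 3710, 4329 and 4147 at 6 h, against 5481, 447 and 561 at 0 h. Because SMJ56 lay above every 6 h mouse the groups overlapped, and the change of 1.86 ± 0.51 (adjusted p = 0.01) became 3.01 without SMJ56 and was no longer called without SMJ57 or without SMJ58. Hmox1 was brighter still at 3 h, with 6562, 6176 and 7591.

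The partners and regulators of NRF2 moved as well, with 4 of 8 genes higher and 1 lower, the lower call being lost without SMJ57, SMJ58, SMJ102 or SMJ103. Maff, a small MAF protein that pairs with NRF2 at antioxidant response elements, had signals of 1781, 2278 and 1899 at 6 h, against 136, 83.3 and 78.4 at 0 h (4.32 ± 0.37, adjusted p = 1.2e-08). Mafk, another small MAF gene, rose by 1.85 and Bach1, a repressor at the same elements, by 1.24. Nfe2l2, the gene of NRF2 itself, rose by 0.75 ± 0.15 (adjusted p = 0.00087), with signals of 1974, 1748 and 1515 at 6 h, against 984, 992 and 1111 at 0 h. Its other tested probe set rose by 2.06 and was also called.

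**Figure D2:**
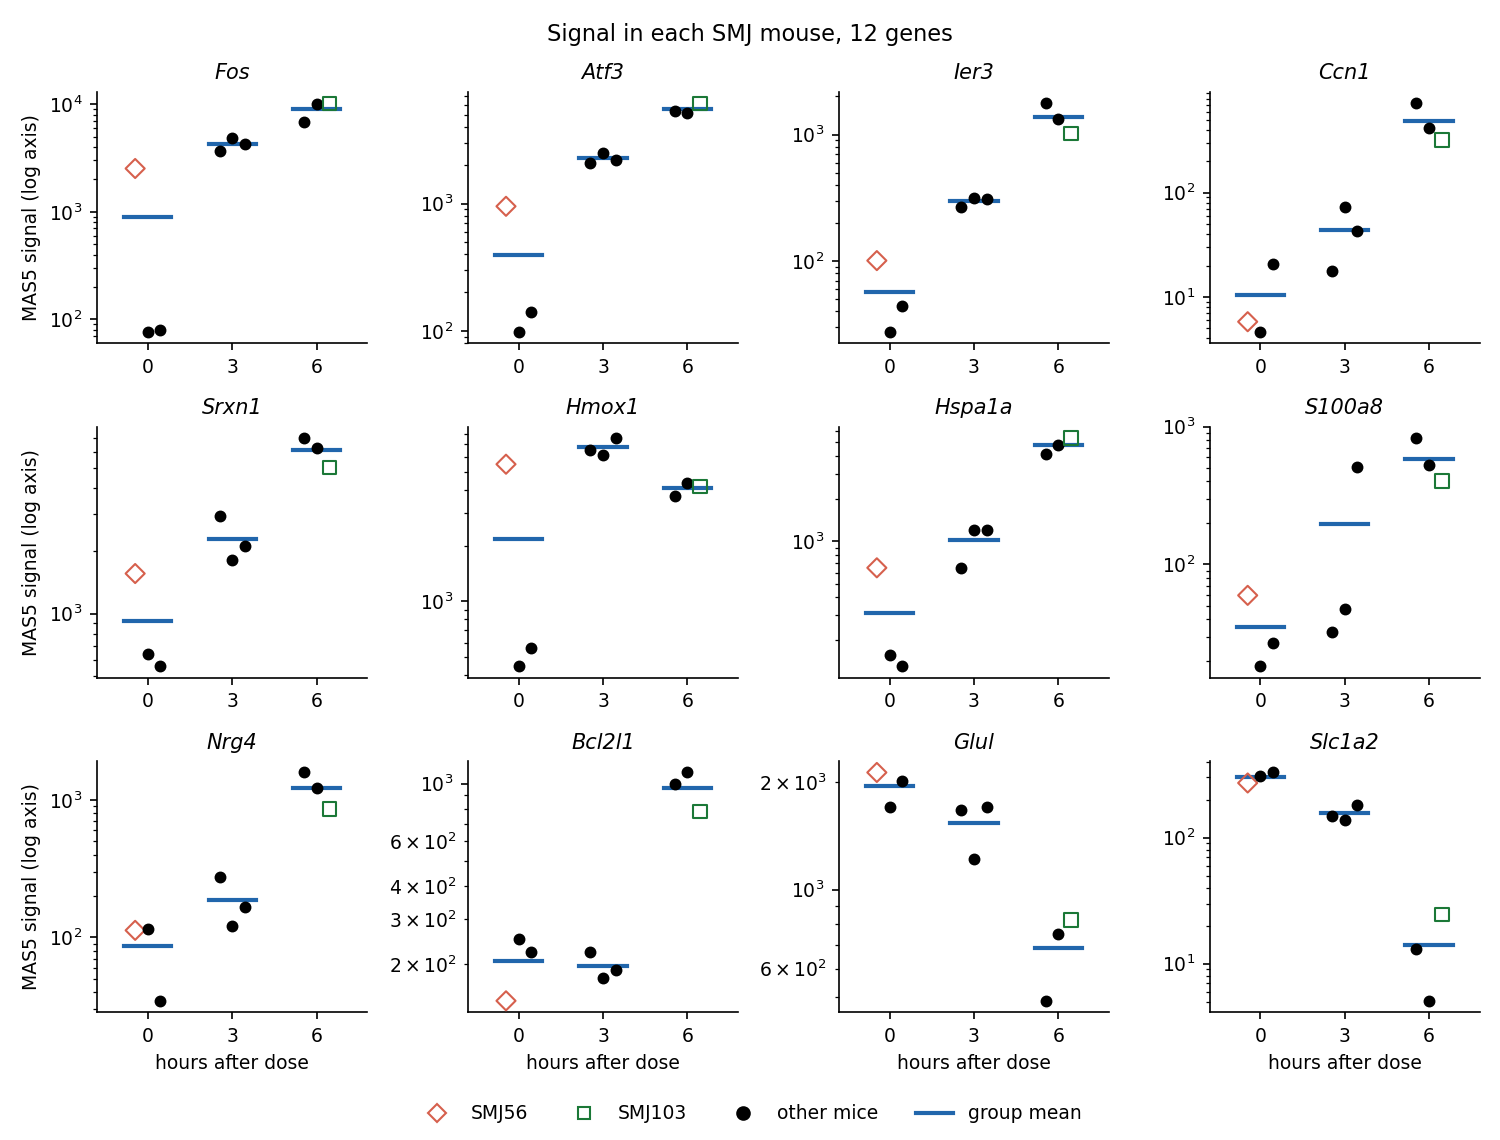
MAS5 signal (log axis) of 12 genes in each SMJ mouse at 0, 3 and 6 h; bars are group means, the open diamond is SMJ56 and the open square SMJ103. SMJ56 lies above the other 0 h mice for Fos, Atf3, Ier3, Srxn1, Hmox1, Hspa1a and S100a8, and near them for Glul and Slc1a2.

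The start sites of 4 genes that rose are shown because each carries letters known as the site of a stress-activated factor, NRF2 or NF-kB. The sequences are RefSeq's, of build GRCm38.p6, from 250 bases before to 50 bases after the annotated gene start, written 5′ to 3′ on the strand of the gene. Capitals mark the letters TGANTCAGC, an antioxidant response element core, on either strand in Srxn1 (chr2:152105274-152105573, plus strand) and Osgin1 (chr8:119436897-119437196, plus strand). In Ier3 (chr17:35821463-35821762, plus strand) and Cxcl2 (chr5:90903649-90903948, plus strand) they mark the NF-kB consensus.
Srxn1: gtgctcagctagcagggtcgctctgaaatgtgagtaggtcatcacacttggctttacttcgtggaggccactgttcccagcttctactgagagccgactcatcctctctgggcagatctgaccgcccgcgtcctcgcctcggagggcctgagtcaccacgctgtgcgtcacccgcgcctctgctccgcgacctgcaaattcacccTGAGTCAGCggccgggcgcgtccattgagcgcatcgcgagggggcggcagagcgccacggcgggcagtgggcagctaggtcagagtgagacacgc
Osgin1: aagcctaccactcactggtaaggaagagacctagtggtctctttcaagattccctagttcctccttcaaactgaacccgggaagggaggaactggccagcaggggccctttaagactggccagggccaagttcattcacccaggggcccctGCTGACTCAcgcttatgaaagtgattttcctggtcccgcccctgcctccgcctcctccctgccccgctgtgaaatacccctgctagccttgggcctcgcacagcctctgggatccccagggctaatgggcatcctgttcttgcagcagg
Ier3: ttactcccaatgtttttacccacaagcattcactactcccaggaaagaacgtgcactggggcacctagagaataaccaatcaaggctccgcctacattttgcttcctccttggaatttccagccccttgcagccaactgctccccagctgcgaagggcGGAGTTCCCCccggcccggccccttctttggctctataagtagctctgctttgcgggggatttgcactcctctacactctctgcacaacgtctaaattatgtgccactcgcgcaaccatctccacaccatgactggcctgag
Cxcl2: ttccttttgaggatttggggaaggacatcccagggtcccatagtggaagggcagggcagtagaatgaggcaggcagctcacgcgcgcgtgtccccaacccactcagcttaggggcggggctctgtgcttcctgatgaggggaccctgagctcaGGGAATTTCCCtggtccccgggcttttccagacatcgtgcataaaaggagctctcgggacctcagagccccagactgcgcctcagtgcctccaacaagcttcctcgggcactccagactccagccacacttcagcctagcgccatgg
The match begins at −45 from the start of Srxn1 and, on the opposite strand, at −99 from that of Osgin1. The NF-kB match begins at −92 from the start of Ier3 on the opposite strand, and Cxcl2 has a match on each strand, overlapping each other. RefSeq's table held such a window for 374 of the 494 genes that rose at least 2-fold, for 302 of the 384 that fell at least 2-fold and for 11093 of all 13802. TGANTCAGC was present in 3.21% of the windows of rising genes, in 0.993% of those of falling genes and in 1.12% of all. For TGANTCA, the AP-1 site that the longer core contains, the shares were 10.2%, 4.97% and 5.74%. The NF-kB consensus was found in 7.22%, 2.98% and 4.95%, and the CArG box, the site of serum response factor, in 3.48%, 0.993% and 1.35%. These are matches of letters on both strands and not measured binding, and they were not tested.

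Genes that make and break down glutathione changed in both directions, with 5 of 12 higher and 2 lower, and 1 lower without SMJ57, SMJ58, SMJ102 or SMJ103. Chac2, which codes for an enzyme that degrades glutathione, had 154, 144 and 185 at 6 h, against 534, 620 and 631 at 0 h. Every treated mouse was well below every 0 h mouse, and the change was −1.87 ± 0.18 (adjusted p = 4.3e-08). Slc3a2, the heavy chain of the cystine importer, rose by 0.79 ± 0.14 (adjusted p = 0.00017). Among the genes that activate or conjugate the drug, 4 of 14 were higher and 1 lower as deposited, but none were higher and 3 were lower after quantile normalization. Without SMJ58, SMJ101 or SMJ102 2 were higher as deposited, with none lower without SMJ58, and without SMJ56 2 were lower. Cyp2e1, the main activating enzyme, had 21150, 20650 and 24030 at 6 h, against 15550, 13570 and 13500 at 0 h. This difference of 0.63 ± 0.21 (adjusted p = 0.038) was lost when any 1 of SMJ57, SMJ58, SMJ101, SMJ102 and SMJ103 was left out, and was −0.14 after quantile normalization. Cyp1a2, another activating enzyme, fell by 1.00 ± 0.30 (adjusted p = 0.019) with 2160, 1669 and 2390 at 6 h, against 3663, 3926 and 4819 at 0 h, and lost its call without SMJ58 or SMJ102. In the Cyp2c and Cyp2b enzymes none of 13 rose and 3 fell, Cyp2c38 by 1.71, Cyp2c39 by 1.82 and Cyp2c50 by 0.81, and these near-identical genes may share probes. The call of Cyp2c39 was lost without SMJ56, SMJ57, SMJ101 or SMJ102, that of Cyp2c50 without SMJ57 or SMJ103, and 1 of the list fell without SMJ57 or without both SMJ56 and SMJ103.

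Chaperones of the heat shock response rose in 12 of 20 tested genes and 1 fell, with a median change of 0.97, and the fall was not called without both SMJ56 and SMJ103. Hspa1a, the inducible HSP70, had signals of 4156, 4815 and 5379 at 6 h, against 649, 156 and 130 at 0 h. The groups did not overlap, and the change of 4.31 ± 0.89 (adjusted p = 0.00095) was 5.03 without SMJ56. Hspa1b, a near-identical copy whose probe sets may share its signal, rose by 2.58 ± 0.68. The HSP70 partner genes Dnajb1 and Bag3 rose by 3.31 and 2.50, the small heat shock protein gene Hspb8 by 1.42 and the mitochondrial chaperonin gene Hspd1 by 0.93. Of the 3 tested probe sets of Hspb8 2 were called, with changes over all 3 from −0.22 to 1.47. Of the chaperones of the endoplasmic reticulum 1 of 18 rose and 3 fell, and without SMJ56 3 rose and 1 fell, and 1 fell also without SMJ58, SMJ101 or SMJ102. The gene that rose was Hspa5, the main chaperone there, with 15650, 13350 and 13850 at 6 h, against 11090, 6266 and 6535 at 0 h. Its change was 0.89 ± 0.21 (adjusted p = 0.0034), and 0.27 and not called after quantile normalization. The genes that fell were Sel1l, Herpud1 and Ero1b. The calls of Herpud1 and Ero1b were lost without SMJ56, SMJ58, SMJ101 or SMJ102.

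The integrated stress response, driven by phosphorylation of the initiation factor eIF2 alpha, had 6 of 18 genes higher and 1 lower (median 0.64), the lower call being lost when any 1 of SMJ57, SMJ58, SMJ101, SMJ102 and SMJ103 was left out. Ddit3, the proapoptotic factor CHOP, had signals of 1564, 2273 and 3119 at 6 h, against 819, 169.4 and 178 at 0 h, a rise of 2.92 ± 0.58 (adjusted p = 0.00069) and of 3.66 without SMJ56. Asns, asparagine synthetase, rose by 1.82 and Ppp1r15a, which codes for the phosphatase subunit GADD34, by 1.49. Fgf21, a stress hormone of the liver, did not pass the test: it had 325, 263 and 269 at 6 h, against 934, 473 and 620 at 0 h (−1.18 ± 0.52, adjusted p = 0.11). Ribosome biogenesis genes rose in 11 of 25 and fell in none (median 0.45), but rose in 6 without SMJ101, led by Nop56 with a rise of 0.97 and Gar1 with 0.83. Proteasome subunits had 2 of 31 higher and 1 lower, with 4 higher without SMJ56, 1 without SMJ58 or SMJ102 and none without SMJ101, and with 2 lower without SMJ102. The lower one, Psmd13, fell by 1.95 on the probe set used for it and had a difference of 0.016 on the mean of all its probe sets. Autophagy genes had 1 of 17 higher, Sqstm1 (1.12), the NRF2-regulated cargo receptor p62, and 2 lower, Atg5 (−0.55) and Tfeb (−0.94, not called without SMJ57 or SMJ101), and without SMJ58 2 genes were higher. The counts of proteasome and autophagy genes were near or below the shares over all genes, 7.99% higher and 11.9% lower.

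Among genes of the BCL2 family, which decide over apoptosis at the mitochondrion, antiapoptotic and proapoptotic members changed. Mcl1, an antiapoptotic member of the BCL2 family, had signals of 3537, 4857 and 3634 at 6 h, against 1078, 1049 and 1081 at 0 h, a change of 1.89 ± 0.16 (adjusted p = 1.3e-08). Bcl2l1, which codes for the antiapoptotic BCL-XL, had 994, 1104 and 781 at 6 h, against 144, 251 and 224 at 0 h (2.23 ± 0.23, adjusted p = 1.6e-07). Both genes were brighter in every treated mouse than in any 0 h mouse. Bcl2 rose by 1.83 from a dim level (0.55 on the mean of its probe sets, not called), and the proapoptotic Bik fell to 8.78, 37.3 and 5.91 at 6 h, against 77.3, 112 and 128 at 0 h (−2.74 ± 0.47, adjusted p = 0.00013). The proapoptotic Pmaip1 also rose, by 2.07, a call that was lost without SMJ57 or SMJ103. In the family as a whole 4 of 14 rose and 2 fell, against 4 and 5 without SMJ56, and 1 fell without SMJ57, SMJ58 or SMJ101. Targets of p53 rose in 3 of 15 and fell in none, and Plk2, a polo-like kinase, rose by 1.47 (0.69 on the mean of its probe sets, not called). Cell cycle and regeneration genes rose in 4 of 19 and fell in none. The growth factor gene Hbegf, a ligand of the EGF receptor, had 434, 204 and 186 at 6 h, against 37.8, 40.2 and 23.3 at 0 h (2.85 ± 0.38, adjusted p = 6.5e-06), and Pcna, the DNA polymerase clamp, rose by 0.80.

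Cytokine and chemokine genes rose in 8 of 26 and fell in 1 (median 0.96). Cxcl2, which draws neutrophils, had signals of 594, 589 and 344 at 6 h, against 24.5, 16.0 and 6.68 at 0 h, without overlap (4.88 ± 0.82, adjusted p = 0.00011). Cxcl10, a chemokine induced by interferon, rose by 3.03 ± 0.74 and Cxcl14 by 3.17 ± 0.71 (2.05 on the mean of its probe sets). The gene that fell was Cxcl12, which retains leukocytes in tissue, with a change of −0.97 ± 0.17 (adjusted p = 0.00019). Neutrophil genes rose in 6 of 12 and fell in none, with a median change of 1.76. S100a8, a calcium-binding protein that neutrophils hold in bulk, had 827, 527 and 404 at 6 h, against 59.7, 18.3 and 27.0 at 0 h (4.05 ± 0.78, adjusted p = 0.00046), and its partner S100a9 rose by 4.17, and by 4.84 without SMJ56. The summed signal of the neutrophil genes was 1588 to 2496 at 6 h and 232.9 to 436 at 0 h. In such bulk tissue more cells of a type and more RNA per cell cannot be told apart, nor can fewer cells and less RNA.

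Kupffer cell and macrophage genes rose in 3 of 14 and fell in none, and their summed signal was 6192 to 7056 at 6 h and 4587 to 5772 at 0 h. The called genes were Cd14, a receptor for endotoxin (2.62), Cd68, a lysosomal protein (1.36), and Lyz2, lysozyme (1.03, and not called without SMJ101). Of endothelial genes 2 of 14 rose and 1 fell, with none rising without SMJ57, 1 without SMJ101 and 2 falling without SMJ58. Of stellate cell genes 2 of 11 rose, and 1 also fell when SMJ56 or SMJ103 was left out, while without both none rose and 1 fell. Of 7 lymphocyte genes none was called. Bile duct genes rose in 5 of 6, among them Krt7 (2.54), Sox9 (1.22) and Epcam (1.17). On the mean of their probe sets Sox9 and Epcam, at 0.85 and 1.39, were not called. Their summed signal was 616 to 1082 at 6 h and 211 to 269 at 0 h, and it was highest in SMJ103, the mouse with high pancreas genes. Without SMJ58 or SMJ103 3 of these genes rose, and without both SMJ56 and SMJ103 2 rose. The part of SMJ103's pancreas signal in the bile duct result was not tested. NF-kB subunits and feedback genes rose in 2 of 15 (1 without SMJ56 or SMJ101), Nfkbiz (2.65) and Bcl3 (1.86, not called without SMJ56 or SMJ101). Socs3, which shuts off cytokine signals, rose by 2.24, Osmr, the oncostatin M receptor, by 2.23 (1.05 on the mean of its probe sets) and Stat3 by 1.01, whereas Stat5b, which relays growth hormone, fell by 0.70. Interferon-stimulated genes had 3 of 17 higher and 1 lower, against 4 and 0 without SMJ56, 2 and 0 without SMJ57 and 1 and 0 without SMJ101. The lower one, Usp18, which dampens interferon signals (−0.99), lost its call without SMJ56, SMJ57, SMJ101 or SMJ103. Over all genes 7.99% rose and 11.9% fell. The counts of endothelial, stellate cell, NF-kB and interferon genes were small, not far from these shares, and not tested against them.

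Matricellular and plasminogen genes, which act in the matrix around cells and in wound repair, rose in 11 of 14 and fell in none, with a median change of 1.5. Ccn1, a matrix protein induced by serum and by YAP, was nearly dark before the drug, with signals of 719, 413 and 320 at 6 h, against 5.78, 4.63 and 20.8 at 0 h. The change was 5.33 ± 0.57 (40.2-fold, adjusted p = 2.9e-07), and 5.12 without SMJ56, with all 3 signals at 0 h below 30.8. Thbs1, thrombospondin, rose by 2.08 ± 0.25, Plaur, the urokinase receptor, by 1.45 ± 0.21, and Ereg, an EGF receptor ligand, by 3.18 ± 0.66. Outside the lists, Akap12, a scaffold of protein kinases, rose to 1383, 1396 and 898 at 6 h, against 45, 56.5 and 50.3 at 0 h (4.50 ± 0.52, adjusted p = 9.3e-07). Lratd1 rose by 4.63 ± 0.42 from signals near 2 at 0 h. Chil3, a chitinase-like protein of myeloid cells, rose by 4.19 ± 0.86, and H3f3b, which codes for a replacement histone, by 4.17 ± 0.64; without SMJ56 these changes were 5.11 and 5.33. In metal handling 5 of 16 genes rose and 1 fell, with 3 rising without SMJ57, SMJ58 or SMJ101, and the fall was not called when any 1 mouse was left out. Mt2, metallothionein, rose by 1.29 (0.66 after quantile normalization, not called) and the zinc importer gene Slc39a14 by 1.61.

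Genes of the hepatocytes around the central vein fell in 10 of 15 and rose in 1, with a median change of −1.28. Slc1a2, which takes up glutamate, had signals of 13, 5.08 and 24.6 at 6 h, against 271, 308 and 328 at 0 h. All treated mice were far dimmer than any 0 h mouse (−4.34 ± 0.68, 20.3-fold, adjusted p = 4.6e-05), and the mean over its 5 probe sets changed by −2.11. Glul, glutamine synthetase, had 487, 748 and 820 at 6 h, against 2132, 1701 and 2017 at 0 h (−1.53 ± 0.29, adjusted p = 0.00037). Oat, ornithine aminotransferase, fell by 2.06 ± 0.29, Tbx3, a transcription factor of these cells, by 1.76 ± 0.28 (0.62 on the mean of its probe sets, not called), and Gulo, which makes vitamin C in mice, by 1.28 ± 0.21. The gene that rose was Cyp2e1, whose call was lost as given above and whose direction turned after quantile normalization. Summed over the list, which Cyp2e1 dominates, the signal was 25320 to 30560 at 6 h and 28080 to 29990 at 0 h, so that the groups overlapped. Periportal genes had 5 of 12 higher and none lower as deposited, and 1 higher and 1 lower after quantile normalization. Without SMJ103 3 were higher, and without SMJ58 4 were higher and 1 lower. Cdh1, E-cadherin, rose under both, with 812, 1027 and 940 at 6 h, against 283, 237.2 and 209 at 0 h (1.92 ± 0.27, adjusted p = 1.5e-05, and 1.97 after quantile normalization).

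**Figure D3:**
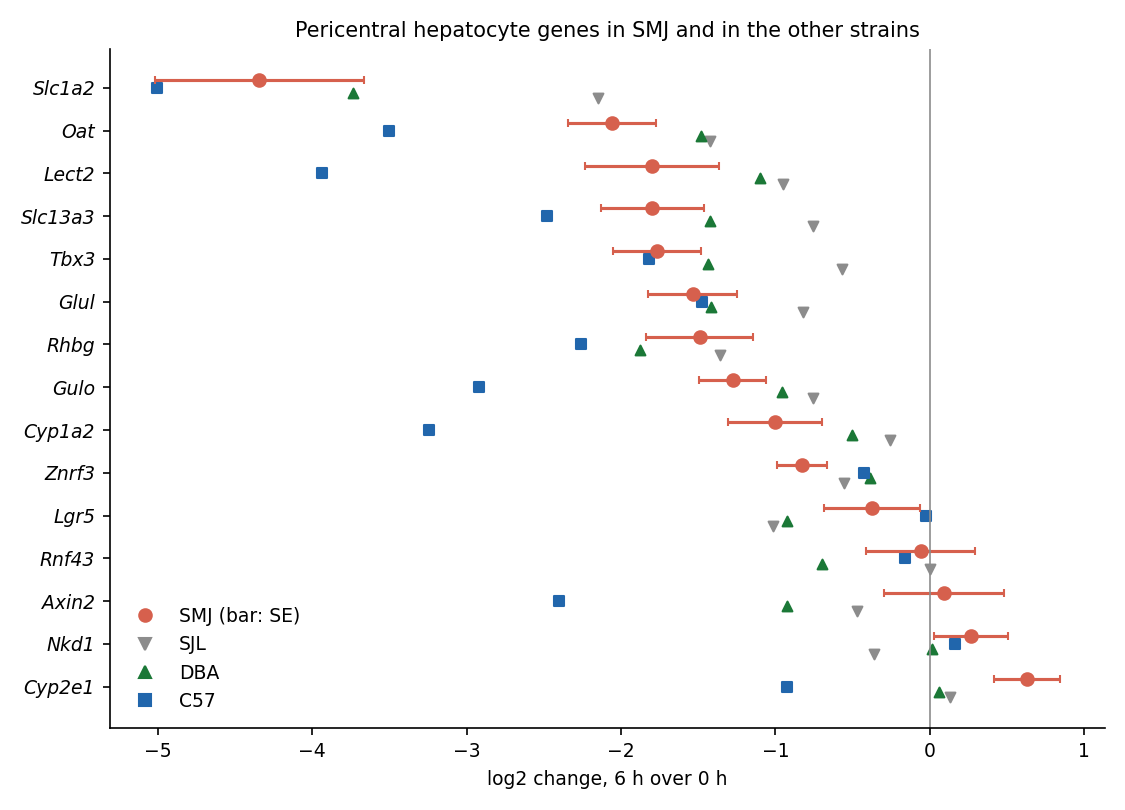
Change at 6 h (log2 of 6 h over 0 h) of the 15 tested genes of hepatocytes around the central vein, in SMJ with the standard error and in SJL, DBA and C57 as points. In SMJ 10 genes fell, Slc1a2 by 4.34, and Cyp2e1 rose.

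The brightest genes moved together, and the direction of their lists depended on the scaling. The 100 brightest genes had a median change of 0.52, with 70 higher and none lower, as deposited, against −0.13 with none higher and 17 lower after quantile normalization. Scaling each array to its 75th percentile left the median at 0.59, with 78 higher. In SJL, DBA and C57 the median change of the same genes was 0.09, 0.24 and 0.29. The 100 brightest probe sets took 13.5% to 15.7% of the summed signal at 6 h and 10.3% to 10.8% at 0 h. Alb, serum albumin, had signals of 24710, 20190 and 28850 at 6 h, against 13720, 13300 and 13310 at 0 h, a difference of 0.86 ± 0.18 (adjusted p = 0.00095) that was 0.08 after quantile normalization. Of the secreted proteins of hepatocytes 14 of 21 were higher and none lower as deposited, against 1 and 2 after quantile normalization and 13 and 1 without SMJ56. Acute phase genes had 11 of 22 higher and 1 lower as deposited, against 2 and 3 after quantile normalization and 14 and 0 without SMJ56. Serpina3n, an antichymotrypsin of the acute phase, rose under both, by 1.16 and by 0.93 after quantile normalization. Saa3, another acute phase gene, did not pass the test, with 168.4, 124 and 160 at 6 h, against 1030, 138 and 136 at 0 h (−0.84 ± 0.92, adjusted p = 0.59).

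**Figure D4:**
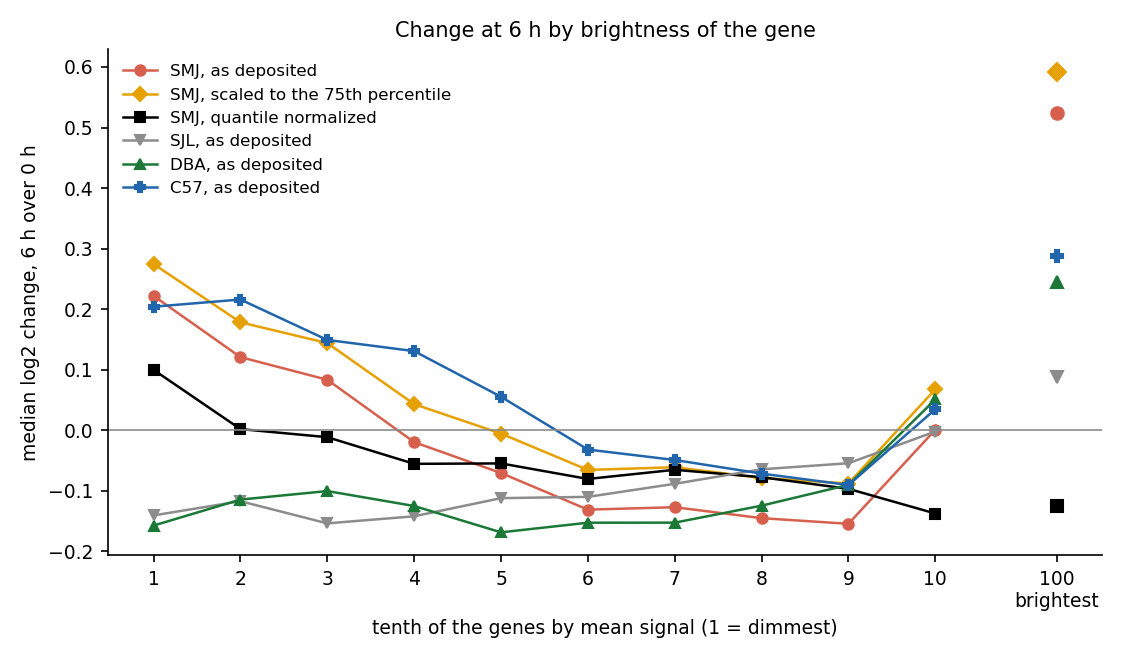
Median log2 change at 6 h over 10 equal classes of the tested genes ranked by mean signal, and over the 100 brightest genes, in SMJ as deposited, after 75th percentile scaling and after quantile normalization, and in the other strains as deposited. The 100 brightest genes lie at 0.52 in SMJ as deposited and at −0.13 after quantile normalization.

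In the list for bile acids, their synthesis and their transporters, genes fell in 6 of 24 and rose in none (median −0.50). Nr1h4, which codes for the bile acid receptor FXR, had signals of 365, 425 and 406 at 6 h, against 990, 765 and 739 at 0 h, without overlap (−1.04 ± 0.16, adjusted p = 5.2e-05). Baat, which joins bile acids to taurine, fell by 1.49 ± 0.23, the hepatic uptake transporter gene Slco1b2 by 1.06 ± 0.18 and Cyp8b1, which makes cholic acid, by 0.69 ± 0.15. Cyp7a1, the first step from cholesterol to bile acids, did not pass the test, with 56, 125 and 121 at 6 h, against 285, 154 and 121 at 0 h (−0.86 ± 0.55, adjusted p = 0.31). Liver transcription factors and xenobiotic receptors had 5 of 19 lower and 1 higher, with 1 lower without SMJ57, 3 without SMJ58 or SMJ103, and 2 higher without SMJ56. The falls included Rxra (−0.51), the shared partner of nuclear receptors, and Prox1 (−0.65), a factor of hepatocyte identity, and the rise was Cebpb (0.84). None of these held throughout: Rxra was at −0.21 on the mean of its probe sets, Prox1 lost its call without SMJ57, and Cebpb was at 0.50 and not called after quantile normalization. Ppara, the fasting regulator of fatty acid oxidation, fell to 314, 296 and 363 at 6 h, against 573, 1471 and 1648 at 0 h (−1.78 ± 0.28, adjusted p = 4.7e-05). In its list of fatty acid oxidation and PPARA targets 2 of 31 rose and 5 fell, against none and 10 after quantile normalization. Without SMJ56 3 of them fell, without SMJ57 or SMJ58 1 rose and 2 fell, and without SMJ102 1 rose and 3 fell. Over all genes 7.99% rose and 11.9% fell, and the counts of this list as deposited were near these shares.

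In fatty acid synthesis 3 of 18 fell and 1 rose, Thrsp, a lipogenic regulator (2.65), and in cholesterol synthesis 1 of 18 fell, Hsd17b7 (−0.71, not called without SMJ57 or SMJ103), with 2 falling without SMJ56. Glucose genes had 2 of 17 higher and 3 lower, against 2 and 7 after quantile normalization and 1 and 2 without SMJ102. The glucose transporter gene Slc2a1 rose by 1.98 ± 0.28, the insulin receptor gene Insr fell by 0.83 ± 0.15 (0.56 on the mean of its probe sets, not called) and Gys2, liver glycogen synthase, by 0.70 ± 0.15. Methionine cycle and sulfur amino acid genes had 2 of 19 higher and 5 lower, none and 6 after quantile normalization, 3 and 3 without SMJ56, 2 and 3 without SMJ101 and 1 and 4 without SMJ103. Csad, a taurine-forming enzyme, fell by 1.73 and Chdh, choline dehydrogenase, by 0.91. Bhmt, betaine homocysteine methyltransferase, had 23860, 21910 and 23340 at 6 h, against 16650, 12800 and 12450 at 0 h, a difference of 0.73 as deposited and −0.077 after quantile normalization. Its paralogue Bhmt2 fell by 0.60 ± 0.20, a call that was lost without SMJ56, SMJ101 or SMJ103. Clotting factors had 4 of 17 higher and 3 lower, against none and 5 after quantile normalization, 1 and 1 without SMJ103, 2 and 1 without SMJ57 or SMJ101 and 3 and 5 without SMJ102. Complement components had none of 17 higher and 2 lower, with none called without SMJ56 or SMJ101 and 1 without SMJ58, SMJ102 or SMJ103. Clock genes had 3 of 17 higher and 2 lower (1 and 2 without SMJ102, 1 and 3 without both SMJ56 and SMJ103), with Bhlhe40 at 1.82, Hlf at −1.01 and Clock at −0.82. Over all genes 7.99% rose and 11.9% fell. The 2 of 17 that fell among complement and among clock genes were near that share, and no list was tested against it.

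Few genes passed the test before 6 h. At 3 h 22 genes (0.159% of those tested) were higher than at 0 h and 1 (0.00725%) was lower, with 1098 genes at an unadjusted p under 0.05 in limma. Without SMJ56 these counts were 69 and 22, and without SMJ57 or SMJ58 they were 12 and 0 or 9 and 0. Of the listed genes 12 had risen by then, 7 of them immediate early genes, and none had fallen. Atf3 had signals of 98.2 to 953 at 0 h, 2071 to 2522 at 3 h and 5178 to 6146 at 6 h, and Maff of 78.4 to 136, 428 to 559 and 1781 to 2278. Gadd45a, by contrast, was near its 6 h level at 3 h, with 11.6 to 174 at 0 h, 488 to 811 at 3 h and 420 to 895 at 6 h. From 3 h to 6 h 608 genes (4.41%) rose and 952 (6.9%) fell, and the 3 h and 6 h values share the same 0 h mice in the comparisons against 0 h. The named genes with the largest later rises were Fosl1 (4.09), Ptpre (3.97), a receptor tyrosine phosphatase, and Akap12 (3.81), and those with the largest later falls were Slc1a2 (−3.39), Zfp750 (−2.38) and Myh7b (−2.33). Without SMJ101 the counts after 3 h were 401 and 633, and without SMJ95 or SMJ96 630 or 594 fell. SMJ98 stood apart at 3 h in the neutrophil gene S100a8, with a signal of 508, against 32.5 and 47.8 in the other 3 h mice.

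The response of SMJ was set against the mean response of SJL, DBA and C57, each with 3 mice at 6 h and 3 at 0 h. It was more positive for 140 genes (1.01%) and more negative for 152 (1.1%), together 2.12% of those tested. In SMJ 19.9% of genes changed at 6 h, against 6.83% in SJL (3.57% higher, 3.25% lower), 11.7% in DBA (4.52% and 7.16%) and 9.81% in C57 (4.15% and 5.66%). Among the genes with the largest differences was Nrg4, an EGF family ligand of the receptor ERBB4, with signals of 1584, 1217 and 859 at 6 h, against 112, 114.7 and 34.5 at 0 h in SMJ. Its change of 3.90 in SMJ compared with 0.71 in SJL, 2.11 in DBA and −0.64 in C57 (difference 3.17 ± 0.53, adjusted p = 0.002). Alas2, the erythroid form of the first enzyme of heme synthesis, had 2090, 458 and 693 at 6 h, against 123, 119 and 122 at 0 h in SMJ, and its difference was 3.26 ± 0.44 (adjusted p = 0.00027). Of 4 listed erythroid genes only 2 were tested, Alas2 and Hba-a1. The 1 tested probe set of Hba-a1 was dim on all 6 arrays, with 5.95 to 20.3 at 6 h and 10.0 to 26.1 at 0 h. Probe sets with several gene symbols were left out, and this probe set cannot stand for globin RNA as a whole. At 0 h Alas2 was lower in SMJ than in the other strains by 1.85 (adjusted p = 0.00025), and Tm4sf1, a surface protein of endothelial and tumour cells, by 1.5. Tm4sf1 then rose by 3.08 in SMJ, with changes of −0.48, 0.69 and −0.10 in SJL, DBA and C57.

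**Figure D5:**
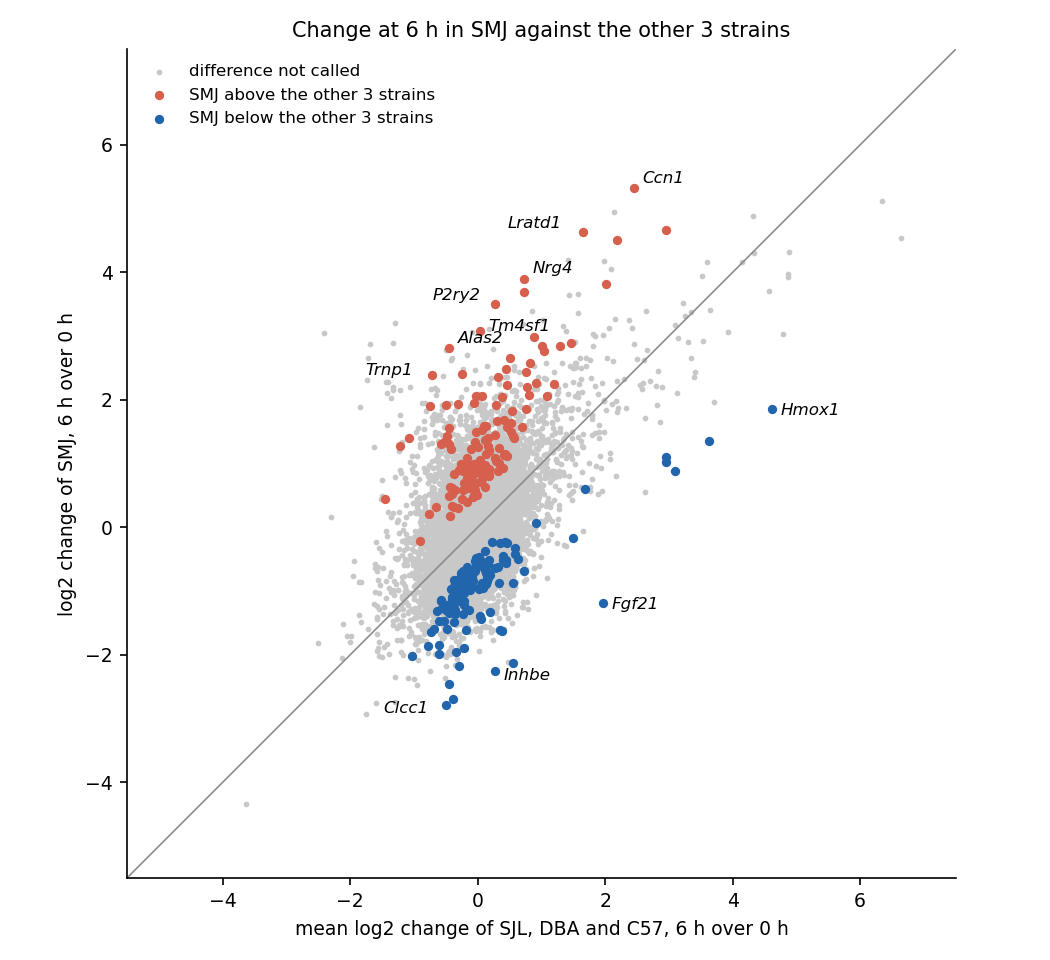
Log2 change at 6 h of each tested gene in SMJ (vertical) against the mean change of SJL, DBA and C57 (horizontal), with the 140 and 152 genes whose difference passed the test coloured. Nrg4, Alas2 and Tm4sf1 lie above the diagonal, and Hmox1 and Fgf21 below it.

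The response was also larger in SMJ for Bcl2l1 (2.23, against 0.29 in SJL, 1.60 in DBA and −0.49 in C57, adjusted p of the difference 0.00068) and for Hbegf (2.85, against 0.34, 1.28 and 1.39, adjusted p = 0.023). Ccn1 rose by 5.33 in SMJ and by 1.81, 1.5 and 4.04 in the other strains (difference 2.88 ± 0.65, adjusted p = 0.018). Ier3, Map2k3, Cdh1, Hspd1 and Nfe2l2 passed the test in the same direction. In the opposite direction stood Fgf21, with −1.18 in SMJ (not called), against 1.58 in SJL, 1.21 in DBA and 3.12 in C57 (difference −3.15 ± 0.60, adjusted p = 0.0051). Herpud1, an endoplasmic reticulum stress gene, fell by 0.69 in SMJ (not called without SMJ56, SMJ58, SMJ101 or SMJ102) and had changes of 0.58, 1.19 and 0.40 in the others (adjusted p = 0.0046). Hmox1 changed by 1.86 in SMJ, against 4.03, 4.99 and 4.85, and its difference of −2.76 ± 0.59 was −1.62 (adjusted p = 0.0077) without SMJ56. Without SMJ56 the differences of Akap12 (adjusted p = 0.076), P2ry2 (0.075), Nfe2l2 (0.076), Tspan8 (0.06), Znf41-ps (0.064) and Baat (0.088) did not pass.

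Some lists are given side by side for the 4 strains as counts of higher and lower genes, without a test between lists. Of all genes 7.99% were higher and 11.9% lower in SMJ, against 3.57% and 3.25% in SJL. The shares were 4.52% and 7.16% in DBA and 4.15% and 5.66% in C57. SMJ thus had more calls over all genes, and a larger count in a list is not by itself a trait of that list. Tested were 25 immediate early, 20 heat shock, 15 pericentral, 14 matricellular and 24 NRF2 target genes. Immediate early genes were 20 higher and none lower in SMJ, against 19 and 0 in SJL, 22 and 0 in DBA, and 20 with 1 in C57. Heat shock genes were 12 and 1 in SMJ, against 15 and 0 in SJL, 6 and 0 in DBA, and 1 with 0 in C57. The change of Hspa1a itself was 4.31 in SMJ, 7.06 in SJL, 4.16 in DBA and 1.78 in C57, where it was not called, and its difference between SMJ and the mean of the others did not pass (−0.03, adjusted p = 0.99). Pericentral genes were 1 and 10 in SMJ, against 0 and 5 in SJL, 0 and 7 in DBA and 0 and 11 in C57. Slc1a2 changed by −4.34 in SMJ, −2.15 in SJL (not called), −3.74 in DBA and −5.00 in C57, and its difference did not pass (−0.71, adjusted p = 0.73). Matricellular genes were 11 and 0 in SMJ, against 0 and 0 in SJL, 3 and 0 in DBA and 5 and 0 in C57, and of single genes of that list Ccn1 passed the test of the difference. NRF2 targets were 15 and 0 in SMJ, against 9 and 0 in SJL, 7 and 0 in DBA and 11 and 1 in C57. Before the drug SMJ differed from the other strains in 612 genes that were higher (4.43%) and 636 that were lower (4.61%), together 9.04%, and Nfe2l2 was higher by 0.89 (adjusted p = 2.9e-05).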

How the data were processed

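Total RNA from the liver of 36 mice, 1 mouse per array, was measured on Affymetrix arrays with 45101 probe sets, of which 64 are controls. Per the submitters' processing notes the authors computed MAS5 signals, an intensity scale, and deposited them unlogged, and the version of MAS5 is not given in the sources used here; on every array their mean, trimmed by 2% at each end, is 150. Of the other probe sets 34945 carry 1 gene symbol in the platform annotation, 932 several and 9160 none. Each of 18193 genes was represented by its probe set with the highest mean log2 signal, passing over probe sets marked as cross-hybridising where another existed. Signals were used as deposited, 2.77 (the 10th percentile of all values) was added before log2, and genes above 30.8, the median of all values, on at least 3 arrays were kept, which left 13802. limma 3.58.1 in R 4.3.3 (lmFit, eBayes) fitted 12 group means over all 36 arrays with 24 residual degrees of freedom, with Benjamini-Hochberg adjustment over all tested genes and a threshold of 0.05. The code was tested on simulated data.

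The members and the 35 pathway and 11 marker lists were chosen with earlier results of these data known, and 749 of the 813 listed genes matched a symbol. Named genes are the 15 largest rises and 15 largest falls past the threshold without overlap between groups, the members of each list with the lowest p (4 at most), the 5 genes each way with the largest difference of response from the other strains, the 3 each way with the largest change from 3 h to 6 h, and 16 genes named in any case, among them Atf3, Hmox1, Cyp2e1 and Alb. Other genes were chosen after their values were seen. Alternatives were quantile normalization, scaling to the 75th percentile, other offsets and filters, the mean of all probe sets of a gene, fewer arrays, array weights, a trended robust spread and leaving out each SMJ mouse. The number of arrays limits the precision.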

Additional observations from a re-analysis of the deposited data

Results flagged for a closer look

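The response at 6 h differed between SMJ and the mean of SJL, DBA and C57 for 31 of the named genes, by limma's test of the difference itself with adjustment over all genes. Over all genes tested the share was 2.12%. Some of the 31 were named because they passed this very test or changed strongly in SMJ. Their number is therefore no support for a difference between strains. The difference, SMJ minus the mean of the others on the log2 scale, was positive for Alas2 (3.26), P2ry2 (3.23), Nrg4 (3.17), Trnp1 (3.10), Tm4sf1 (3.04), Lratd1 (2.98), Ccn1 (2.88), Akap12 (2.32), Ptpre (2.04) and Pdgfrb (2.02). It was also positive for Hbegf (1.85), Bcl2l1 (1.76), Ier3 (1.71), Tspan8 (1.64), Cdh1 (1.64), Map2k3 (0.88), Nfe2l2 (0.69) and Hspd1 (0.54). The difference was negative for Fgf21 (−3.15), Hmox1 (−2.76), Slc9a7 (−2.69), Inhbe (−2.53), Zfp750 (−2.31), Clcc1 (−2.28), Znf41-ps (−2.0), Itga10 (−1.87), Herpud1 (−1.41), Baat (−1.11), Chac2 (−1.09), Oit3 (−1.0) and Gys2 (−0.84). Mean signals of SMJ mice at 6 h lay between 1.71 and 175.1 for P2ry2, Trnp1, Pdgfrb, Slc9a7, Zfp750, Clcc1, Znf41-ps and Itga10. The dimmest of these lay below 30.8, the median of all values, and the brightest above it. Probe sets of Clcc1 and Pdgfrb disagreed on the change in SMJ at 6 h. The 5 tested for Clcc1 ranged from −2.78 to −0.0007 with 2 called, and the 2 for Pdgfrb from −0.02 to 1.56 with 1 called. Hmox1 was high in SMJ56 before the drug, and without that mouse its difference was −1.62.

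Probe sets that carry no gene symbol or several were not part of the comparisons of genes. Of 10092 such probe sets 5063 passed the filter on dim values, and 494 of them (9.757%) changed in SMJ at 6 h, 304 higher and 190 lower.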

How the results depend on the processing

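The genes that changed at 6 h were 1103 higher and 1643 lower, and leaving out 1 mouse at a time gave 824 to 1077 and 1114 to 1527. With the spread estimated from the 6 arrays alone the counts were 491 and 447, and from the 9 SMJ arrays 990 fell; fewer arrays leave fewer residual degrees of freedom. For 3 h against 0 h, 22 were higher and 1 lower, with 8 to 69 and 0 to 22 when 1 mouse was left out. That comparison gave 37 higher and 8 lower with a filter at 4 times the median, 2 higher with the 9 SMJ arrays, 108 and 57 with array weights, 66 and 27 without both SMJ56 and SMJ103, 3 lower with offset 16, 3 lower with the mean of all probe sets, 0 lower without a filter and 8 lower with a trended robust spread. For 6 h against 3 h, 608 and 952 became 357 and 334 with the 9 SMJ arrays, and ranged over 401 to 560 and 594 to 846 with 1 mouse left out. The response against the other strains, 140 and 152, became 251 and 317 with array weights, 247 lower with the stricter filter, 90 lower without a filter and 90 lower with the mean of all probe sets, and ranged over 63 to 160 and 49 to 162. It was 84 and 49 without SMJ57, 80 and 55 without SMJ58, 63 and 60 without SMJ101, and 92 higher without SMJ102. At 0 h, SMJ against the other strains gave 612 and 636, 1230 and 1259 with array weights, and 316 to 461 and 376 to 510 with 1 SMJ mouse left out (SMJ57 or SMJ58 for the lowest). After quantile normalization the direction turned for Gpx1 (−0.023), Gstp1 (−0.019), Cyp3a11 (−0.16), Cyp2e1 (−0.14), Bhmt (−0.077), Plg (−0.12), F2 (−0.23), Serpinc1 (−0.20), Acaa1b (−0.22), Serpina1c (−0.011), Pigr (−0.0077) and Cps1 (−0.13), all bright genes, and with the mean of all probe sets for Psmd13 (0.016). Of 189 named genes called at 6 h, 160 kept direction and call after quantile normalization, 185 after 75th percentile scaling, 178 without SMJ56, 172 without SMJ103, 164 without both and 112 with the 6 arrays alone. Where no construction of the alternative shows it, the cause was not tested. Leaving out SMJ56 and SMJ103 together, and SMJ56 for single genes of the response, was chosen after seeing the data. No paired analysis was possible because the mice carry their own numbers, which no 2 groups share. Signals near 30.8 and below limit what dim genes can show.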
